A study of Homo sapiens with 16 samples.

Results

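MS78 was examined in NCI-H1299, a line from a non-small cell lung cancer that carries no full p53 gene. MS78 is a bifunctional small molecule built to bind the p53 mutant Y220C at one end and the acetyltransferases p300 and CBP at the other, so a line without p53 lacks the protein it was made for. The comparison holds 8 of the 16 poly(A) RNA libraries of the series: Null MS78, which had 10 µM MS78 for 24 h (n = 4), and Null DMSO, which had the vehicle for the same time (n = 4). They were chosen by their labels. All 8 came from the parental line in RPMI medium with serum and without G418. The other 8 libraries, used here for 1 comparison of responses, were NCI-H1299 cells that stably express p53 Y220C and were kept in 500 µg/mL G418, with the same MS78 and DMSO arms (Y220C MS78 and Y220C DMSO, n = 4 each). Line, transgene and G418 therefore cannot be told apart, and the labels do not say whether that line is a single clone or whether each replicate was its own culture, so the p-values rest on a spread among libraries that may be technical.

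Several regulatory systems recur in what follows. Sterol regulatory element binding proteins (SREBPs) are membrane-held transcription factors that are cut and released when sterol in the endoplasmic reticulum is low, and SREBP2 then drives the enzymes of cholesterol synthesis while SREBP1 drives fatty acid synthesis. Oxysterols, made when sterol is plentiful, activate LXR, which raises the sterol exporters ABCA1 and ABCG1. TFEB and its relatives drive lysosomal genes, E2F factors drive replication genes, the DREAM and MuvB complexes govern mitotic genes through the CHR element, and ATF4 drives amino acid synthesis and transport. These statements are background and not results.

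Reads of leukocyte genes split the 8 libraries across the treatment. PTPRC, which encodes the leukocyte phosphatase CD45, had 1, 99, 99 and 74 reads in Null MS78 replicates 1 to 4, against 60, 0, 0 and 1 reads in Null DMSO replicates 1 to 4. GZMB, which encodes granzyme B, had 0, 481, 485 and 485 reads in Null MS78, against 375, 1, 0 and 1 reads in Null DMSO. CD74, the invariant chain of HLA class II, had 1, 446, 411 and 284 reads in Null MS78, against 217, 2, 2 and 2 reads in Null DMSO. Null MS78 replicates 2, 3 and 4 and Null DMSO replicate 1 were therefore the libraries with these reads. Their mix of markers differed. GNLY had 890 and 905 reads in Null MS78 replicates 2 and 3, but 154 in Null MS78 replicate 4 and 131 in Null DMSO replicate 1. In the same order CD3E had 10, 13, 39 and 34 reads and IL2RA 14, 15, 69 and 40 reads, the other way. A set defined by PTPRC reads treats these 4 libraries as alike. Of 28 leukocyte markers, 21 had more reads in each of these 4 libraries than in any of the other 4, and 23 had at most 5 reads in every library without PTPRC reads. Most marker reads of the other 4 libraries came from CD68, a lysosomal membrane protein of macrophages that other cells also make, which had 2373, 2625, 2362 and 1900 reads in Null MS78, against 1689, 1824, 1890 and 1944 reads in Null DMSO. Summed without CD68, which was set apart after its values were seen, the other 27 markers came to 133.7 to 177.3 RPM in the 3 Null MS78 libraries with PTPRC reads and 9.37 in the one without, beside 100.7 RPM in Null DMSO replicate 1 and 11.4 to 12.7 in the other 3 Null DMSO libraries. With CD68, the 28 markers came to 225.8 to 275.7 RPM (reads per M estimated reads of a library) in the 3 Null MS78 libraries with PTPRC reads and 101.3 in the one without. In Null DMSO they came to 175.9 RPM in the library with PTPRC reads and 90.3 to 96.0 in the 3 without. Red cell markers summed to between 0.266 and 0.649 RPM over all 8 libraries, with 5 of 7 at 0 within each set. In bulk RNA a change in the number of cells of a type and a change in RNA per cell cannot be told apart.

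**Figure D1:**
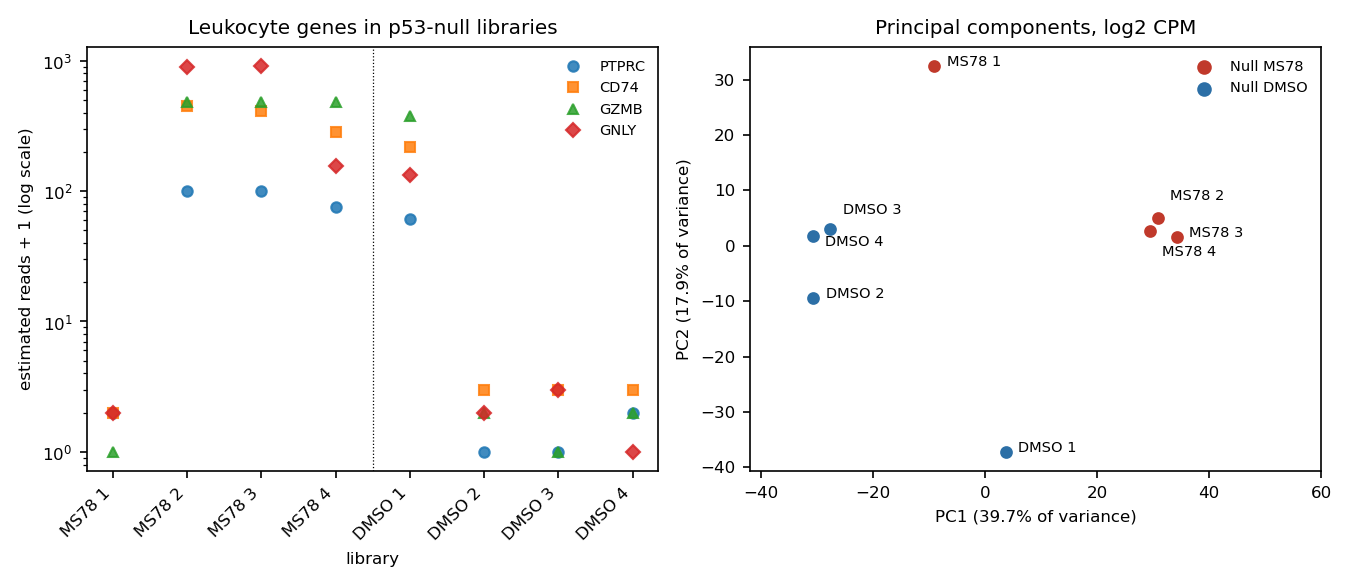
Left, estimated reads of 4 leukocyte genes in each p53-null library on a log axis of reads + 1, Null MS78 left of Null DMSO; right, the same libraries on the first 2 principal components of log2 CPM (counts per M reads). Null MS78 replicates 2 to 4 and Null DMSO replicate 1 hold 60 to 99 PTPRC reads and the other libraries 0 or 1, and Null MS78 replicate 1 and Null DMSO replicate 1 lie away from the rest of their groups.

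Because 3 of 4 Null MS78 and 1 of 4 Null DMSO libraries held leukocyte reads, the treatment contrast was also fitted with a term for them, among the libraries that had them and among those that did not (the 16 libraries split 8 and 8). The term itself called 154 of 15687 genes (0.982% of genes tested), of which 151 were higher where PTPRC had reads. Of these 154, 13 were also called for MS78 in p53-null cells, all 13 upward. They include GNLY, which encodes granulysin, with a log2 fold change (Null MS78 over Null DMSO) of 3.77 pooled and 2.203 (adjusted p = 0.123) within the libraries with PTPRC reads. The genes of the term took 0.0323% to 0.0365% of reads in Null MS78 replicates 2 to 4 and 0.0027% in Null MS78 replicate 1, beside 0.0263% in Null DMSO replicate 1 and 0.0031% to 0.0039% in Null DMSO replicates 2 to 4. Of 21 tested leukocyte markers, 3 were called up in the pooled fit (median log2 fold change 1.66) and 7 with the term (median 0.17). Their median within the libraries with PTPRC reads was 0.28. The term therefore did not take out the leukocyte reads in full. Null MS78 replicate 1 and Null DMSO replicate 1 also stood apart on the first principal component (39.7% of the variance), at -9.11 beside 29.4 to 34.2 for the other Null MS78 libraries, and at 3.68 beside -30.7 to -27.6 for the other Null DMSO libraries. Depth was 20.7 M to 27.7 M estimated reads in Null MS78 libraries and 22.5 M to 24.7 M in Null DMSO libraries. Replicates of a group differed beyond sampling noise in every pair, with chi-square per gene between 2.53 and 6.77. Epithelial markers summed to 461 to 477 RPM in Null MS78 and 492 to 539 in Null DMSO, while lung epithelial markers summed to 3.4 to 5.6 over all 8 libraries, so few transcripts of differentiated lung epithelium were present. FOXA1, at 67 to 109 reads, made up most of the lung marker reads. The surfactant gene SFTPA1 had 15 reads in Null DMSO replicate 1 and 9 in Null MS78 replicate 4, beside 0 or 1 in the others. FOXA1 showed no such split, and the source of these few reads was not tested. Most of the epithelial marker reads came from the keratins KRT8 (3748 to 4815 reads over all 8 libraries) and KRT18 (5911 to 7981). Each other epithelial marker had at most 85 reads in any library. KRT8, an epithelial keratin, stood at 173 ± 6.53 CPM in Null MS78 and 180.2 ± 12.5 CPM in Null DMSO (mean ± SD, n = 4 each, as in every such pair), and VIM, the mesenchymal filament vimentin, at 5283 ± 67.95 CPM in Null MS78 and 5366 ± 226 CPM in Null DMSO; neither passed the test (adjusted p = 0.473 and 0.707).

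MS78 changed many transcripts of the p53-null line by small amounts and a few by large ones. With edgeR's quasi-likelihood test and Benjamini-Hochberg adjustment at 0.05, 4402 of 15687 genes were called (28.1%), 2319 upward (14.8%) and 2083 downward (13.3%). The median size of a called change was 0.281 on the log2 scale, and 162 genes rose and 51 fell by at least 2-fold. The 4 Null MS78 and 4 Null DMSO libraries did not overlap for 4597 genes (29.3% of genes tested), of which 3838 were called. Protein-coding genes were called more often than long noncoding RNAs, at 31.2% of 13372 and 10% of 1630. Without scaling factors 1720 genes were called up and 2779 down, so the share called up was 38.2% of calls in place of 52.7%, and the median over all genes lay at -0.035 in place of 0.0086.

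**Figure D2:**
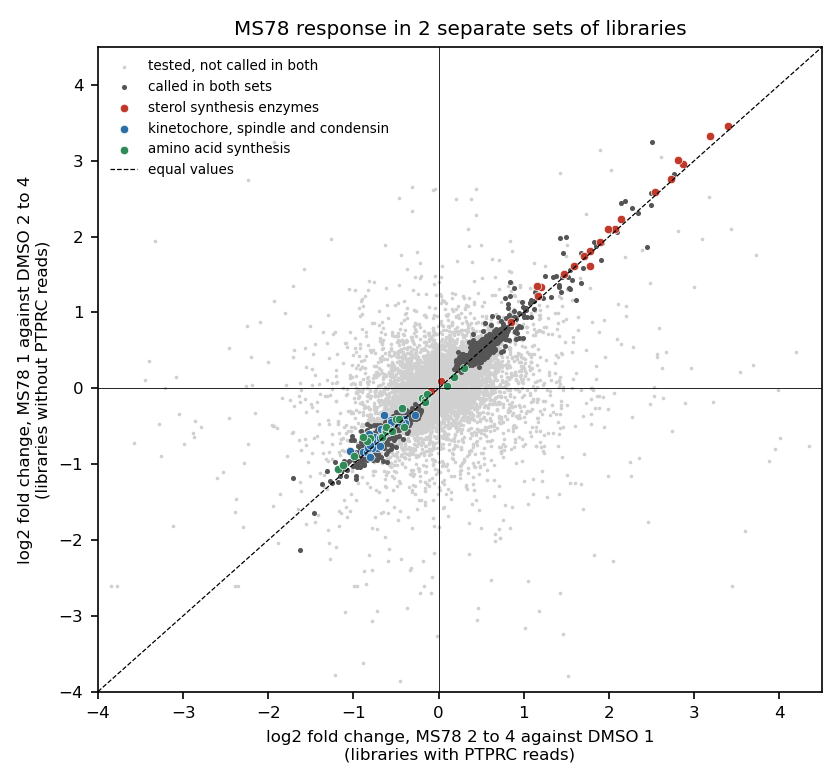
Log2 fold change of MS78 against DMSO in p53-null cells in the libraries with PTPRC reads (horizontal axis) and in the others (vertical axis), 1 point a gene, with the library numbers on the axes; colours mark 3 gene lists and dark grey the genes called in both sets. Of the 929 genes called in both sets, 928 lie on the same side of 0 in both, and 72 of 15527 genes are outside the axes.

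Both library sets gave the same directions where both made a call. Among libraries with PTPRC reads 2346 of 16486 genes passed (14.2%), and among the rest 1070 of 16362 (6.54%). Of these, 929 were called in both sets, 39.6% of the first and 86.8% of the second, and 928 of them had the same direction, 476 up and 452 down. The exception was ENSG00000267303, which was chosen after its values were seen. With the term for PTPRC reads in the fit of all libraries, 4024 genes were called (25.7%), 3807 of them shared with the fit without it. Each set has a single library in 1 of its p53-null groups, which is assumed to vary like the other groups. Without Null MS78 replicate 1 the count of called genes was 4038, and without Null DMSO replicate 1 it was 3968.

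Cholesterol synthesis was the most changed pathway among the 58 lists examined by median log2 fold change. Of 21 tested enzymes of the pathway, 19 rose and 0 fell, with a median log2 fold change of 1.81, beside 28.1% called and a median of 0.0086 over all genes tested. HMGCS1, the synthase that commits acetyl-CoA to HMG-CoA, stood at 809, 688, 779 and 704 CPM in the Null MS78 libraries, against 68.4, 72.1, 74.7 and 72.6 CPM in the Null DMSO libraries. Each Null MS78 library lay several-fold above each Null DMSO library, and the fold was 10.4 (log2 fold change 3.37, SE 0.054, adjusted p = 1.86e-20). MVD, which decarboxylates mevalonate diphosphate, stood at 699, 679.6, 755 and 697 CPM in Null MS78, against 77.5, 71.03, 72.6 and 65.7 CPM in Null DMSO, a fold of 9.87. FDPS, which makes farnesyl diphosphate, stood at 1828, 1704, 1835 and 1823 CPM in Null MS78, against 266, 277, 267 and 261 CPM in Null DMSO, and MSMO1, a sterol demethylation oxidase, at 296, 258, 293 and 273 CPM in Null MS78, against 38.997, 34.8, 40.6 and 34.1 CPM in Null DMSO. For these 4 genes the groups did not overlap. The 2 tested members that did not pass were PMVK, the mevalonate phosphate kinase (37.9 ± 1.35 CPM in Null MS78 and 36.4 ± 1.61 CPM in Null DMSO, adjusted p = 0.648), and LBR, a nuclear envelope protein with sterol reductase activity (101 ± 1.74 CPM in Null MS78 and 104 ± 1.99 CPM in Null DMSO, adjusted p = 0.341).

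The rise ran from the first steps of the pathway to the last. In the mevalonate arm, ACAT2 had a log2 fold change of 2.17, the kinase MVK 1.69 and the isomerase IDI1 2.86. At the branch into sterols, squalene synthase FDFT1 had 1.93, squalene epoxidase SQLE 2.06 and lanosterol synthase LSS 1.81. Among the later enzymes, CYP51A1 had 1.28, TM7SF2 0.904, NSDHL 1.26, HSD17B7 2.01, EBP 1.26, SC5D 1.45 and DHCR7 1.76. The smallest of these changes that passed was thus TM7SF2, a sterol reductase, at 130.4 ± 3.82 CPM in Null MS78 and 69.7 ± 3.71 CPM in Null DMSO. Per length, FDPS averaged 2794 ± 96.6 transcripts per M (TPM) in Null MS78 and 428 ± 8.54 TPM in Null DMSO, and HMGCS1 298 ± 24.7 TPM in Null MS78 and 31.2 ± 0.958 TPM in Null DMSO (SD, n = 4 each). The same count of 19 up and 0 down was found with the PTPRC term, within the libraries with PTPRC reads (median 1.78) and within those without (median 1.81). The median was thus as large without leukocyte reads as with them, and with each p53-null library left out in turn the counts were 19 and 0 and the median lay between 1.78 and 1.83.

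**Figure D3:**
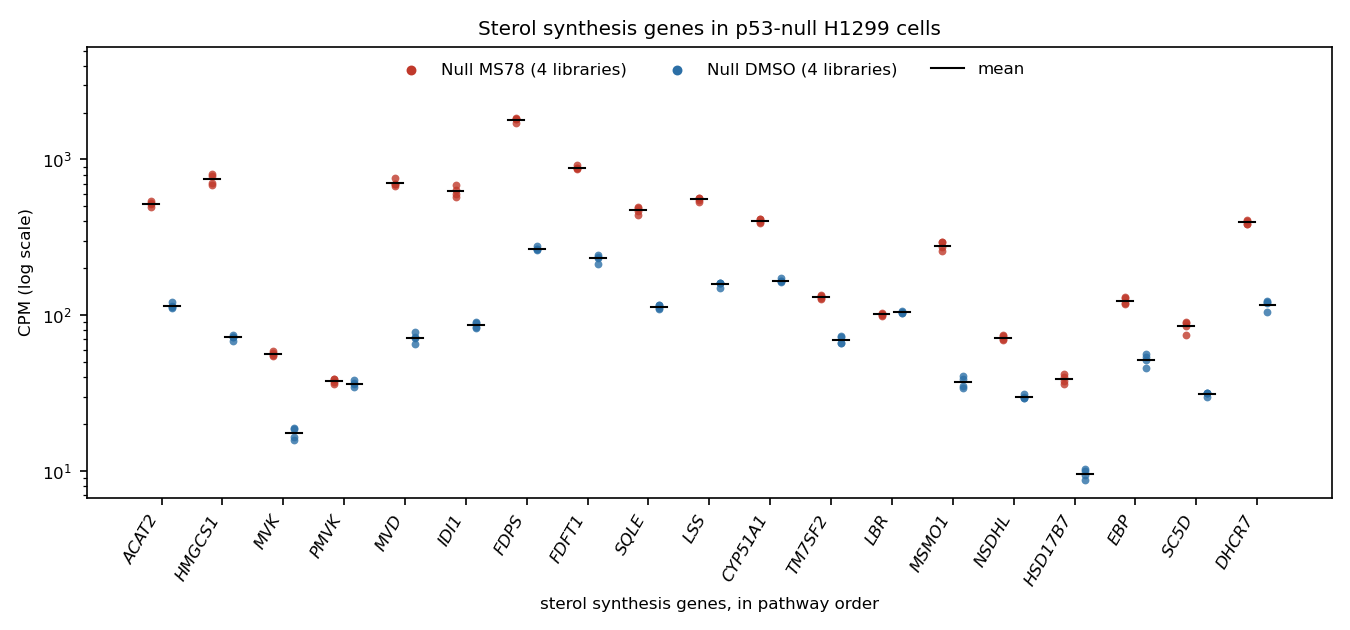
CPM of the sterol enzymes named in the text in each p53-null library on a log axis, Null MS78 left of Null DMSO and a line at each mean, genes in pathway order. For HMGCS1 the Null MS78 libraries lie 10.4-fold above the Null DMSO libraries on average, and the points of the 2 groups are apart for each enzyme that passed.

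Most promoters of the sterol enzymes hold the CCAAT box bound by NF-Y, a factor that works beside SREBPs and at many other promoters. Over the 250 bases before the annotated start, CCAAT or its complement ATTGG was found in 12 of 16 sterol enzyme promoters with a sequence (75%), beside 33.04% of all 27305 promoters in the table and 34.9% of the 11535 genes tested with a sequence. The box was as common or nearly so in lists that did not rise, at 75% for mitotic regulators, 70.97% for kinetochore genes and 85.7% each for endoplasmic reticulum stress genes and histone genes. The sterol element searched (TCACNCCAC, both strands) was in 0 of those 16 promoters and in 0.875% of all promoters. It was found in the promoter of SREBF2, which encodes SREBP2 itself. Windows around a match are shown for 4 of the strongest risers and for SREBF2, 5′ to 3′ on the gene's strand, with the motif in capitals (RefSeq sequences, build GRCh38.p14). A match is a description of the letters and not evidence of binding, and absence of these letters from a window says nothing about a factor.
HMGCS1 (chr5:43313537-43313593, minus strand): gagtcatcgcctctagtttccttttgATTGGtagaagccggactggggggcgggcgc
MVD (chr16:88663181-88663237, minus strand): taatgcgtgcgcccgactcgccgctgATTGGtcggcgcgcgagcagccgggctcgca
FDPS (chr1:155308664-155308720, plus strand): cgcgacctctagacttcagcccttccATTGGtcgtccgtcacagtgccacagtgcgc
MSMO1 (chr4:165327504-165327560, plus strand): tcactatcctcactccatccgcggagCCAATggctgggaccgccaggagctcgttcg
SREBF2 (chr22:41832946-41833006, plus strand): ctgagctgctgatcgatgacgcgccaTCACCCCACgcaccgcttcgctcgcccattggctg

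The regulators of the pathway moved in both directions. Of 18 tested genes of SREBP control and sterol uptake, 10 rose and 4 fell (median 0.26). INSIG1 encodes a protein that holds SREBPs back when sterol is plentiful. Its transcript stood at 594, 536, 595 and 564 CPM in Null MS78, against 82.5, 80.1, 88.7 and 81.8 CPM in Null DMSO. Every Null MS78 library was above every Null DMSO library (log2 fold change 2.78). STARD4, a cytosolic sterol carrier, rose by 1.59 on the log2 scale, NPC2 and NPC1, which export cholesterol from lysosomes, by 0.95 and 0.76, and SREBF2 by 0.66. The 4 that fell were SREBF1, which encodes SREBP1 (-0.22), MYLIP, a ubiquitin ligase induced by LXR (-0.397), ERLIN1 (-0.35) and MBTPS2, the site-2 protease of SREBPs (-0.18). Of 11 tested LXR targets and sterol efflux genes, 2 rose and 4 fell. ABCA1, the cholesterol exporter, stood at 15.5, 16.2, 14.7 and 15.3 CPM in Null MS78, against 34.5, 34.9, 36.4 and 37.8 CPM in Null DMSO, with no overlap (log2 fold change -1.22, SE 0.06, adjusted p = 2.81e-12). ABCG1, which was near the limit of detection, had 6, 9, 5 and 8 reads in Null MS78 and 16, 19, 15 and 18 reads in Null DMSO (log2 fold change -1.304, adjusted p = 0.00782). It did not pass without the filter on low counts (adjusted p = 0.0563), on length-scaled TPM (log2 fold change -0.52, adjusted p = 0.549) or within the libraries with PTPRC reads (adjusted p = 0.354) or without (adjusted p = 0.189). The other two that fell were MYLIP and SREBF1. The 2 that rose were APOE, an apolipoprotein (0.87), and LPCAT3, a phospholipid acyltransferase (0.33).

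Fatty acid synthesis rose with the sterol enzymes. Of 22 tested genes, 17 rose and 0 fell, with a median log2 fold change of 0.56. FASN, the fatty acid synthase, stood at 4057, 4132, 3960.1 and 3881 CPM in Null MS78, against 705, 702, 662 and 668 CPM in Null DMSO, and SCD, the stearoyl-CoA desaturase, at 9878, 9543, 9748 and 9590.3 CPM in Null MS78, against 3277, 3203, 3502 and 3339 CPM in Null DMSO. Both changes far exceeded the spread within groups, with log2 fold changes of 2.55 (SE 0.039) and 1.54 (SE 0.029). ACSS2, which makes acetyl-CoA from acetate, rose by 2.32 on the log2 scale, ACLY, which makes it from citrate, by 1.93, and the acyl-CoA ligase ACSL4 by 1.23. Within the libraries with PTPRC reads 15 members rose and 0 fell, and within those without 14 rose and 0 fell. Of 29 phospholipid and sphingolipid genes, 6 rose and 1 fell, near the 28.1% of all genes that were called. PCYT2, the rate-limiting enzyme of phosphatidylethanolamine synthesis, stood at 108 ± 4.77 CPM in Null MS78 and 37.97 ± 1.22 CPM in Null DMSO (log2 fold change 1.51), and the ceramide glucosyltransferase UGCG had a log2 fold change of 0.51. The 1 that fell was SGPL1, the sphingosine phosphate lyase (-0.28).

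Lysosomal genes rose broadly and by little. Of 42 tested hydrolases 27 rose and 1 fell (median log2 fold change 0.201), of 26 lysosomal membrane and TFEB control genes 18 rose and 0 fell (median 0.24), and of 17 subunits of the proton pump V-ATPase 13 rose and 0 fell (median 0.22). NEU1, the lysosomal sialidase, stood at 227, 228, 237 and 240.0 CPM in Null MS78, against 87.6, 86.8, 90.8 and 87.3 CPM in Null DMSO, and was the largest of these changes among genes at 1 CPM or more (log2 fold change 1.401). LIPA, the acid lipase that frees cholesterol from its esters, rose to 133 ± 3.12 CPM in Null MS78, against 74.9 ± 5.198 CPM in Null DMSO (0.82). The hydrolase that fell was CTSB, cathepsin B (-0.399). Among membrane and control genes RRAGC and RRAGD, the Rag GTPases that signal amino acids to mTORC1, rose by 0.62 and 0.51 on the log2 scale, OSTM1 by 0.62 and FLCN, the folliculin that acts on the Rag GTPases, by 0.44. Of the pump, ATP6V1E1 rose by 0.49 and ATP6V0A1 by 0.42. Of 34 autophagy genes 16 rose and 1 fell. The receptor SQSTM1 stood at 873 ± 4.06 CPM in Null MS78 and 567 ± 11.5 CPM in Null DMSO (0.62), WIPI1 rose by 0.84, and ATG12 fell (-0.13).

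The lysosomal counts were lower within the 2 library sets, and the medians were close to the pooled ones. Within the libraries with PTPRC reads 15 hydrolases, 12 membrane and control genes and 10 pump subunits rose, and within those without 5, 7 and 5. The medians in the set without were 0.16, 0.26 and 0.17. The CLEAR motif bound by TFEB, searched as TCACGTGA, was in 17.2% of 29 hydrolase promoters, 13.04% of 23 membrane and control promoters and 16.7% of 12 pump promoters, beside 0.8899% of all promoters and 1.63% of those of genes tested. It holds the general E-box CACGTG, which was in 6.49% of all promoters and 8.81% of those of genes tested. The CLEAR shares rest on 5 hydrolase, 3 membrane and control and 2 pump promoters. Similar shares occurred outside the lysosomal lists, at 15.4% of 13 BCL2 family promoters and 14.3% of 14 acetyltransferase and bromodomain reader promoters. Many other lists had none, among them autophagy (0 of 30). The CLEAR motif was also in the promoters of GAA, MCOLN1 and RRAGB, which were not called (log2 fold change 0.041, 0.095 and 0.091). Windows with the motif in capitals are shown for 3 genes that rose: LAMP1, a lysosomal membrane glycoprotein (log2 fold change 0.27), GALNS, a sulfatase (0.23), and the pump subunit ATP6V1G1 (0.22).
LAMP1 (chr13:113297184-113297238, plus strand): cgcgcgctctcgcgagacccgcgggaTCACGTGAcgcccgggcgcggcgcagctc
GALNS (chr16:88857089-88857148, minus strand): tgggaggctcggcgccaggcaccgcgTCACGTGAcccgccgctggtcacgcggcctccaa
ATP6V1G1 (chr9:114587684-114587743, plus strand): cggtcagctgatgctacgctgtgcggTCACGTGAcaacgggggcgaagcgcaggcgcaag

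Replication and mitosis genes fell almost throughout. Of 27 tested origin and helicase genes 26 fell and 0 rose (median log2 fold change -0.68), and of 29 polymerase and fork genes 28 fell and 0 rose (-0.59). All 22 tested mitotic kinases and regulators fell (-0.61), as did 34 of 35 kinetochore, spindle and condensin genes (-0.69) and 19 of 22 nucleotide synthesis genes (-0.302). The shares are to be read against 13.3% of all genes called down. The members of the origin, fork and kinetochore lists that did not pass were ORC4 (55.1 ± 2.47 CPM in Null MS78 and 53.4 ± 2.12 CPM in Null DMSO), POLD2 (193 ± 6.63 CPM in Null MS78 and 199.6 ± 15.6 CPM in Null DMSO) and CENPI (11.98 ± 0.759 CPM in Null MS78 and 13.8 ± 0.675 CPM in Null DMSO).

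The falls of single genes reached about 2-fold. CDK1, the kinase that starts mitosis, stood at 52.1, 49.1, 52.05 and 50.9 CPM in Null MS78, against 106, 109, 107 and 112 CPM in Null DMSO. CDC45, of the replicative helicase, stood at 21.3, 21.9, 20.7 and 24.05 CPM in Null MS78, against 42.8, 46.1, 40.5 and 44.7 CPM in Null DMSO. NDC80, of the outer kinetochore, stood at 59.3, 55.4, 56.2 and 54.5 CPM in Null MS78, against 110.0, 104, 106 and 113 CPM in Null DMSO. In all of these genes every Null MS78 library was below every Null DMSO library, and the log2 fold changes were -1.09 (SE 0.038), -0.99 (SE 0.056) and -0.94 (SE 0.043). Further falls were -0.94 for MCM10, -0.86 for MCM2, -0.92 for the primase subunit PRIM1, -0.88 for topoisomerase TOP2A, -0.79 for the ribonucleotide reductase subunit RRM2 and -0.82 for thymidine kinase TK1. UBE2C, of the anaphase-promoting pathway, and AURKB, the chromosome passenger kinase, had -0.85 and -0.83. Tubulin genes TUBA1B and TUBB, among the largest losses in absolute CPM, stood at 899 ± 24.1 and 1386 ± 10.4 CPM in Null MS78 and 1455 ± 57.2 and 2149 ± 72.4 CPM in Null DMSO.

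Control genes of the cell cycle were split. Of 22 G1 cyclin, E2F and RB genes 10 fell and 1 rose. The falls included CCNE2 (-1.03), E2F2 (-0.99), E2F8 (-0.77) and E2F1 (-0.73), and the rise was CCND1, cyclin D1, at 413 ± 7.98 CPM in Null MS78 and 351 ± 5.43 CPM in Null DMSO (0.24). Of 8 CDK inhibitors 3 rose and 3 fell. CDKN1A, which encodes p21, stood at 80.5, 84.04, 82.9 and 87.03 CPM in Null MS78, against 48.6, 54.4, 48.95 and 49.998 CPM in Null DMSO, with no overlap (log2 fold change 0.73, SE 0.046, adjusted p = 1.35e-10). CDKN1C and CDKN2B also rose (1.31 and 0.37), and CDKN2C, CDKN3 and CDKN1B fell (-0.39, -0.35 and -0.197). Of 37 homologous recombination and Fanconi genes 31 fell and 1 rose (median -0.52). RAD54L fell by 1.07 on the log2 scale, EXO1 by 1.02 and FANCD2 by 0.96, while RAD50 rose (0.17).

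These groups fell in both library sets as well. Within the libraries with PTPRC reads 22 of 22 mitotic regulators and 33 of 35 kinetochore genes fell, and within those without 20 and 29. For origin and helicase genes the counts were 24 and 22 of 27. The CHR element, searched on both strands as TTTGAA or TTCGAA, was in 43.8% of 16 mitotic regulator promoters and 54.8% of 31 kinetochore promoters, beside 14.6% of all promoters and 9.52% of those of genes tested. The E2F element, searched on both strands as TTTGGCGC or TTTCCCGC, was in 26.1% of 23 origin promoters and 23.1% of 26 polymerase promoters, beside 1.96% of all and 2.99% of genes tested. CDC20, which activates the anaphase-promoting complex, fell (-0.56), as did KIF11, a spindle motor (-0.72), MCM6 (-0.603) and the sliding clamp PCNA (-0.66). Their windows show a CHR element for the first pair and an E2F element for the second, in capitals. In KIF11 and PCNA the match is on the other strand, so the capitals are its reverse complement.
CDC20 (chr1:43358890-43358947, plus strand): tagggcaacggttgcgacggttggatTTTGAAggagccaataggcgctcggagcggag
KIF11 (chr10:92593076-92593129, plus strand): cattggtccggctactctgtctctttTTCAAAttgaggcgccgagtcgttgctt
MCM6 (chr2:135876500-135876559, minus strand): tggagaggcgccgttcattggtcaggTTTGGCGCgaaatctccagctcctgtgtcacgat
PCNA (chr20:5126648-5126707, minus strand): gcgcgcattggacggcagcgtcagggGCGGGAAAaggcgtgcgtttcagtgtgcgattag

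Genes of amino acid supply fell. Of 23 tested amino acid synthesis genes 17 fell and 2 rose (median -0.47), of 20 cytosolic tRNA synthetases 15 fell and 1 rose (-0.31), of 21 transporters 9 fell and 4 rose and of 20 ATF4 pathway regulators 10 fell and 4 rose (-0.28). ASNS, asparagine synthetase, stood at 412, 344, 381 and 351 CPM in Null MS78, against 773, 818, 786 and 878 CPM in Null DMSO, and SLC7A11, the cystine importer, at 57.7, 46.3, 53.2 and 47.6 CPM in Null MS78, against 113, 117, 107 and 115 CPM in Null DMSO. Neither gene had an overlap between the groups (log2 fold change -1.13 and -1.14). PSAT1 and PHGDH of serine synthesis fell (-0.97 and -0.77), as did the leucine importer pair SLC7A5 and SLC3A2 (-0.87 and -0.77), the glycine transporter SLC6A9 (-1.196) and the mitochondrial PEP carboxykinase PCK2 (-1.11). Of the regulators, CHAC1, a glutathione-degrading enzyme, had -1.08, the secreted hormone STC2 -1.05, ATF3 -0.74, CEBPG -0.71 and ATF4 itself -0.32. Those that rose included GLUL, glutamine synthetase (0.32), the tRNA synthetase RARS1 (0.19), the transporters SLC1A1, SLC38A7, SLC36A1 and SLC6A6 (0.47, 0.45, 0.35 and 0.302), and the regulators KLHL24, ATF5, EIF2AK3 and EIF2AK4 (0.66, 0.58, 0.401 and 0.18). The ATF4 element, searched as TGATGNAA, was in 26.7% of 15 amino acid synthesis promoters, 12.5% of 16 synthetase promoters, 11.1% of 18 regulator promoters and 5.88% of 17 transporter promoters, beside 3.19% of all promoters and 1.34% of those of genes tested. ATF3, whose response differed most between the lines among these genes, holds one in the window below, in capitals.
ATF3 (chr1:212565190-212565249, plus strand): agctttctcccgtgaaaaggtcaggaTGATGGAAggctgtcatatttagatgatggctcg

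**Figure D4:**
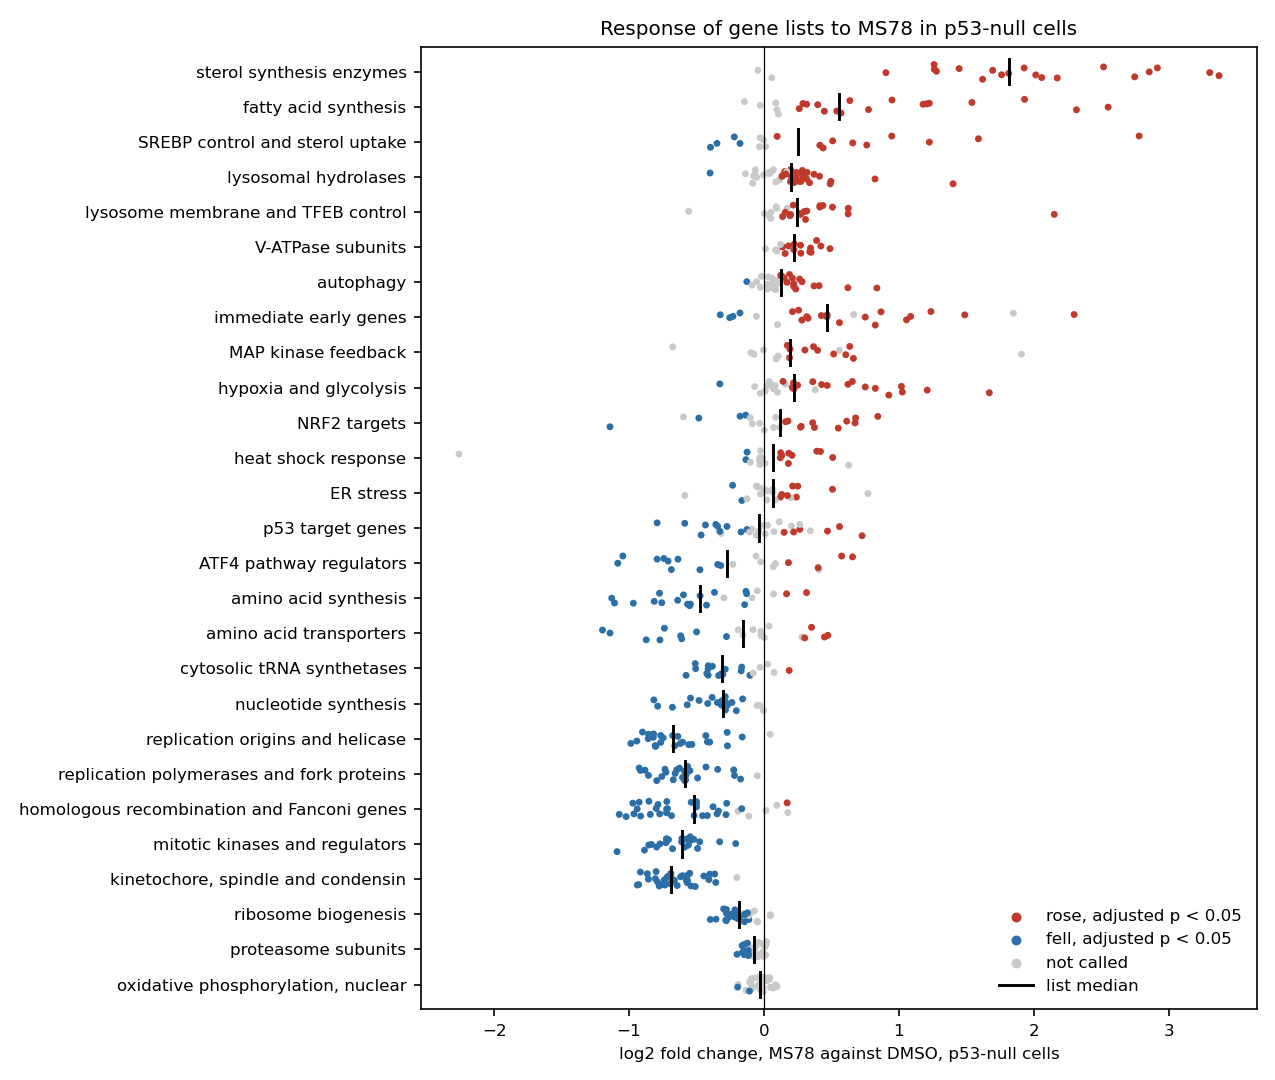
Log2 fold changes of MS78 against DMSO in p53-null cells for the members of gene lists, 1 point a gene, with the median of each list marked. Sterol synthesis enzymes have the highest median (1.81), and the medians of the replication, mitosis and amino acid lists lie below 0.

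Immediate early genes, which serum and growth factors induce through MAP kinases, mostly rose. Of 25 tested members 17 rose and 4 fell (median 0.47), which is 84% called beside 28.1% of all genes. With the PTPRC term 16 rose and 4 fell. The median was 0.46 in the set with PTPRC reads and 0.35 in the set without. NR4A1, an orphan nuclear receptor, stood at 14.6, 15.7, 15.5 and 14.1 CPM in Null MS78, against 5.06, 5.52, 5.39 and 5.38 CPM in Null DMSO, and EGR1, a zinc finger factor, at 29.01, 27.4, 25.5 and 26.1 CPM in Null MS78, against 14.6, 14.1, 12.2 and 11.3 CPM in Null DMSO. Neither gene had an overlap between groups (log2 fold change 1.49 and 1.06). NR4A3 and NR4A2 rose by 2.298 and 1.24 on the log2 scale and CCN2 by 0.87, while JUN, IER5, KLF10 and MYC fell (-0.23, -0.32, -0.18 and -0.25). In the set without PTPRC reads, where Null MS78 has a single library, JUN, IER5, KLF10 and MYC had -0.20, -0.22, -0.17 and -0.24. Of 19 genes of MAP kinase feedback 10 rose and 0 fell. They include the inhibitors SPRY1 (0.66), SPRY2 (0.64) and SPRY4 (0.52) and the phosphatase DUSP5 (0.61). Of 25 growth factor receptors and ligands 5 rose and 2 fell, about the same share as over all genes. The 2 that fell were the receptor AXL (-0.38) and VEGFA (-0.33), and the EGF receptor ligand HBEGF rose (0.62).

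Stress and energy genes were divided by pathway. Hypoxia and glycolysis genes rose in 17 of 30 cases, and VEGFA fell (median 0.22). BHLHE40, a repressor, stood at 39.8, 42.6, 46.4 and 40.9 CPM in Null MS78, against 19.7, 17.1, 20.6 and 16.1 CPM in Null DMSO (log2 fold change 1.21), the glucose transporter SLC2A3 rose by 0.93, and ALDOA, the aldolase, was at 2382 ± 43.1 CPM in Null MS78 and 1416 ± 152 CPM in Null DMSO (0.75). Of 23 NRF2 targets 11 rose, among them OSGIN1 (0.84) and the pentose phosphate enzyme PGD (0.67), and 4 fell, SLC7A11 among them. Of 20 heat shock genes 9 rose and 2 fell (median 0.065), with HSPB1 at 0.51, HSPA8 at 0.21 and HSP90AA1 at 0.18. The near-identical copies HSPA1A and HSPA1B also rose (0.39 and 0.42), but how reads were divided between them is uncertain, and HSPD1 and AHSA1 fell (-0.13 and -0.13). Endoplasmic reticulum stress genes rose in 7 of 23 cases, and 2 fell, namely HERPUD1 (-0.23) and HYOU1 (-0.16). With the PTPRC term, without Null DMSO replicate 2 or without Null MS78 replicate 3, 4 of them rose, and within each library set 1 rose. Of 31 proteasome subunits 0 rose and 10 fell, by at most 0.199 on the log2 scale (PSMD14). The falls numbered 4 without Null DMSO replicate 1 or 2 or Null MS78 replicate 2, 5 without Null MS78 replicate 3 and 6 without Null MS78 replicate 1. In the set with PTPRC reads 3 fell and in the other 0, at medians of -0.089 and -0.074 beside -0.071 pooled. Of 30 ribosome biogenesis genes 22 fell and 0 rose (median -0.18), but within the libraries without PTPRC reads 2 fell, and the median there was -0.18. Of 32 nuclear genes of oxidative phosphorylation 2 fell and 0 rose, NDUFV1 (-0.19) and ATP5F1B (-0.11), far under the 28.1% of all genes, and of 13 mitochondrially encoded genes 3 fell, MT-CO1 (-0.23), MT-CO3 (-0.1995) and MT-ATP8 (-0.18), which is 23.1% called. The mitochondrially encoded falls moved with the leukocyte reads, with a list median of -0.117 pooled, -0.041 with the PTPRC term, -0.073 in the set with PTPRC reads and -0.0053 in the set without, where 0 passed. MT-CO3 did not pass with the PTPRC term (log2 fold change -0.12, adjusted p = 0.177), by DESeq2 (adjusted p = 0.0815) or with a replicate block (adjusted p = 0.113). Of the 13, 1 fell without Null DMSO replicate 2 or Null MS78 replicate 4.

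Genes known as p53 targets showed no common direction in these cells. Of 29 tested, 6 rose and 10 fell, with a median log2 fold change of -0.04. This is 55.2% called, beside 28.1% of all genes (14.8% up and 13.3% down). With the PTPRC term 6 rose and 9 fell. The median was -0.05 in the set with PTPRC reads and -0.12 in the set without. Besides CDKN1A, those that rose included the cyclin CCNG1 (0.47), TIGAR, ZMAT3 and RRM2B (0.27, 0.22 and 0.15). SESN2, a stress sensor that ATF4 also drives, stood at 42.7 ± 3.27 CPM in Null MS78 and 74.03 ± 2.81 CPM in Null DMSO (-0.79), and the BH3-only killer PMAIP1 at 22.01 ± 1.52 CPM in Null MS78 and 32.99 ± 2.91 CPM in Null DMSO (-0.59). MDM2, the ligase that degrades p53, did not pass, at 14.9 ± 1.44 CPM in Null MS78 and 15.9 ± 1.14 CPM in Null DMSO (adjusted p = 0.5002). TNFRSF10B, a TRAIL receptor, stood at 63.8 ± 2.06 CPM in Null MS78 and 69.7 ± 2.42 CPM in Null DMSO (log2 fold change -0.13, adjusted p = 0.0271), but with the PTPRC term its adjusted p was 0.103. Of 23 death receptor and caspase genes 5 rose and 3 fell (34.8% called, beside 28.1% of all genes), among them the decoy receptor TNFRSF10D (0.71). The counts were 3 and 2 without Null DMSO replicate 2, and 4 and 1 without Null DMSO replicate 3. Of 17 BCL2 family genes 5 rose and 2 fell, among them the killer BMF at 28.4 ± 0.175 CPM in Null MS78 and 15.8 ± 0.639 CPM in Null DMSO (0.85).

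Among chromatin genes, EP300 rose most of the tested acetyltransferases and bromodomain readers. EP300, which encodes p300, stood at 58.6, 66.8, 55.5 and 57.3 CPM in Null MS78, against 49.9, 45.5, 45.3 and 52.6 CPM in Null DMSO (log2 fold change 0.303, adjusted p = 0.00968), with no overlap. Within the libraries with PTPRC reads its log2 fold change was 0.25 (adjusted p = 0.0865) and within those without, 0.29 (adjusted p = 0.335), in fits with fewer libraries. Of 17 acetyltransferases and bromodomain readers 4 rose and 2 fell (35.3% called), and of 16 deacetylases 3 rose and 1 fell (25%), near the 28.1% of all genes. Without Null MS78 replicate 2, 2 acetyltransferases and readers rose and 1 fell. HDAC9, a class IIa deacetylase, stood at 41.4, 37.2, 35.9 and 36.3 CPM in Null MS78, against 13.3, 13.4, 14.6 and 16.6 CPM in Null DMSO, with no overlap (1.38). HDAC5, of the same class, and SIRT2 also rose (0.73 and 0.16), and HDAC2 fell (-0.13). Of 15 histone genes 5 rose and 4 fell, with H2BC21 at 0.78 and the variants H2AX and H2AZ1 at -0.67 and -0.48.

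Surface, matrix and other gene groups gave single large changes. MMP1, interstitial collagenase, stood at 25.4, 22.3, 26.1 and 23.5 CPM in Null MS78, against 6.61, 6.43, 7.15 and 7.06 CPM in Null DMSO (log2 fold change 1.83), among 12 of 33 matrix genes that rose and 4 that fell. Of 7 ligands of the killer cell receptor NKG2D, MICA, MICB and ULBP2 rose (0.902, 0.33 and 0.505), while ULBP1 fell to 4.18 ± 0.674 CPM in Null MS78, against 10.7 ± 1.21 CPM in Null DMSO (-1.36). Of 16 NF-kB and inflammatory genes 3 rose (LIF, 0.61; ICAM1, 0.54; RELB, 0.28) and 3 fell, and of 27 interferon response genes 6 rose and 2 fell, which is 37.5% and 29.6% called beside 28.1% of all genes. A single NF-kB gene fell (1 in place of 3) without Null DMSO replicate 1 or without Null MS78 replicate 1. ELAVL3, a neuronal RNA-binding protein, stood at 8.98, 11.05, 10.7 and 8.73 CPM in Null MS78, against 3.17, 2.199, 3.02 and 2.55 CPM in Null DMSO (1.85), and 5 of 14 neuronal genes rose and 0 fell, or 3 rose without Null MS78 replicate 4. Of 6 AHR pathway genes TIPARP, CYP1A1 and CYP1B1 rose (0.44, 0.58 and 0.33). CYP1A1 did not pass edgeR's test on length-scaled TPM (log2 fold change 0.34, adjusted p = 0.324). Among arrestins of the TXNIP family ARRDC4 fell (-1.796) and ARRDC3 rose (0.42). TXNIP had 1, 29, 23 and 7 reads in Null MS78 and 11, 0, 0 and 4 reads in Null DMSO and did not pass (adjusted p = 0.138). Its reads were highest in libraries with PTPRC reads in both groups, and it passed without Null DMSO replicate 1 (log2 fold change 3.32, adjusted p = 0.0366) and without the filter on low counts (adjusted p = 0.0168).

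Large protein-coding changes by the rule also included SLCO4C1, an organic anion transporter, at 48.2, 42.7, 50.1 and 43.1 CPM in Null MS78, against 9.82, 8.797, 7.41 and 9.73 CPM in Null DMSO (2.36), and SNAI3, a zinc finger repressor among the matrix and EMT genes, at 1.91 ± 0.392 CPM in Null MS78 and 0.258 ± 0.145 CPM in Null DMSO (2.85). PEG10, a retrotransposon-derived imprinted gene, was among the largest gains in absolute CPM, at 1845 ± 67.8 CPM in Null MS78 and 915 ± 35.2 CPM in Null DMSO (1.01). TERT, the telomerase reverse transcriptase, fell (-1.26), as did the DNA glycosylase NEIL3 (-1.14). TERT did not pass edgeR's test on length-scaled TPM (log2 fold change -1.398, adjusted p = 0.066). EIF3CL, CKMT1B and the readthrough gene NDUFC2-KCTD14 also fell (-2.203, -1.28 and -1.98), but each shares sequence with a close copy or a parent gene, so their values are uncertain.

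Of the 5 long noncoding RNAs that rose most, 4 lie beside genes of sterol synthesis. By the same rule the 5 were ENSG00000261604 (3.59), SNAI3-AS1 (2.298), SOD2-OT1 (2.13), RUSC1-AS1 (1.81) and ENSG00000244675 (1.67). ENSG00000261604 (chr5:43287601-43290839, plus strand) overlaps HMGCS1 (chr5:43289395-43313512, minus strand), SOD2-OT1 overlaps ACAT2 on the other strand and RUSC1-AS1 overlaps FDPS on the other strand. SNAI3-AS1 (chr16:88663298-88687186, plus strand) begins 137 bases from the start of MVD, which runs the other way, and overlaps SNAI3. ENSG00000244675 overlaps ATP13A3, a polyamine transporter gene on the same strand. Of 12 long noncoding RNAs at 1 CPM or more that rose at least 2-fold, 6 (50%) lay within 10000 bases of a coding gene that did so too, beside 11 of the 969 tested at that level (1.14%). Use of strand in the counting is not stated, so reads of overlapping genes cannot be told apart. Coordinates are those of GENCODE 29 on GRCh38.

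The responses of the 2 lines were then compared by the interaction of line and treatment in the same fit. In the Y220C line 7611 of 15687 genes were called (48.5%). Both lines called 3116 genes, of which 2780 had the same direction, 63.2% of the p53-null calls and 36.5% of the Y220C calls, and 336 had opposite directions. The difference itself was called for 4197 genes (26.8%), with the p53-null response more positive for 1941 (12.4%) and more negative for 2256 (14.4%). Of the 4402 genes called in p53-null cells, 1775 (40.3%) also had a called difference. Among the 895 of these that had one direction in both lines, the change was smaller in p53-null cells for 774 and larger for 121. A further 2291 genes were not called in p53-null cells but were called in the Y220C line with a called difference.

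**Figure D5:**
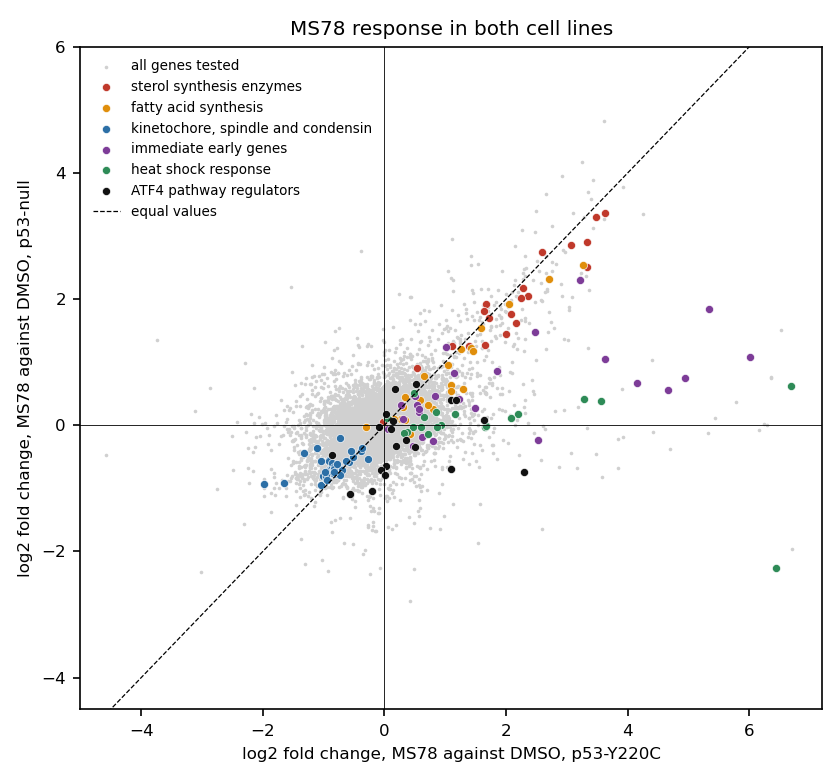
Log2 fold change of MS78 against DMSO in p53-null cells (vertical axis) and in the Y220C line (horizontal axis), 1 point a gene, with 6 gene lists in colour and a line of equal values; 15 of 15686 genes are outside the axes. Sterol enzymes lie near the line, while the heat shock and immediate early genes lie to its right, with medians of 0.065 and 0.47 in p53-null cells and 0.903 and 1.15 in the Y220C line.

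Sterol, replication and lysosomal changes were found in both lines, and stress genes separated them. The sterol enzymes had a median log2 fold change of 1.81 in p53-null cells and 2.09 in the Y220C line, with the difference called more positive in p53-null cells for 3 and more negative for 9 of 21. FASN had 2.55 in p53-null cells and 3.26 in the Y220C line, a difference of -0.71 (adjusted p = 3.67e-09). Among the cell cycle lists, 12 of 22 mitotic regulators, 12 of 35 kinetochore genes, 10 of 27 origin genes and 10 of 29 fork genes had a called difference that was more positive in p53-null cells, and 0, 1, 4 and 2 one that was more negative. The mitotic regulators had medians of -0.61 in p53-null cells and -0.8997 in the Y220C line. For MVD and CDK1 the difference did not pass, at -0.17 ± 0.082 (SE, adjusted p = 0.128) and -0.013 ± 0.055 (SE, adjusted p = 0.899). Of 20 heat shock genes 18 had a called difference, all 18 more negative in p53-null cells, and the medians were 0.065 in p53-null cells and 0.903 in the Y220C line. The same held for 21 of 25 immediate early genes (medians 0.47 in p53-null cells and 1.15 in the Y220C line), for 17 of 23 endoplasmic reticulum stress genes, and for 13 of 16 NF-kB genes with 1 the other way.

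Several genes moved in opposite directions. ATF3 had a log2 fold change of -0.74 in p53-null cells and 2.29 in the Y220C line, a difference of -3.04 (SE 0.13, adjusted p = 1.19e-12). JUN had -0.23 in p53-null cells and 2.53 in the Y220C line (difference -2.76), and MYC had -0.25 in p53-null cells and 0.799 in the Y220C line (difference -1.05). FOS rose in both, by 0.75 in p53-null cells and 4.95 in the Y220C line (difference -4.197), as did CDKN1A, by 0.73 in p53-null cells and 1.74 in the Y220C line (difference -1.01). The stress chaperones CRYAB and HSPA6 were among the largest differences (-8.71 and -6.06), but in p53-null cells they had 0, 0, 0 and 0 and 8, 9, 5 and 7 reads in Null MS78, against 1, 0, 0 and 1 and 6, 4, 4 and 4 reads in Null DMSO, so these sizes depend on the prior count. SLC7A11 fell in p53-null cells and stood at 0.16 in the Y220C line (difference -1.2997). Of the differences in the other direction, BMF had 0.85 in p53-null cells and -0.025 in the Y220C line (difference 0.88), CITED2, a CBP and p300 binding protein, 0.79 in p53-null cells and 0.01 in the Y220C line (difference 0.78), and SYT12, a synaptotagmin, 1.38 in p53-null cells and -0.44 in the Y220C line (difference 1.83). CRH, the corticotropin-releasing hormone, stood at 58.4 ± 4.05 CPM in Null MS78 and 53.2 ± 1.53 CPM in Null DMSO and did not pass there, and its log2 fold change was -2.06 in the Y220C line (difference 2.19). Of 29 p53 targets 2 had a more positive and 10 a more negative called difference in p53-null cells, and in the Y220C line 14 rose and 5 fell.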

How the data were processed

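The deposited tables hold the authors' estimated counts of reads for each transcript (estimated count values made before deposit by a quantifier whose columns, per the file headers, are those of Salmon), not normalized and not always whole. For TPM, the authors divided by effective transcript length and library total, per the file headers, and these served for levels compared between genes and in 1 alternative. Effective transcript lengths in a further column are also the authors' values, per the file headers. FastQC 0.11.8 and the build hg38 are named in the submitters' processing notes, while the quantifier's version, transcript set and use of strand are not given there.

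Counts were summed per gene through GENCODE 29 identifiers without version and rounded to whole numbers, and 0.306% to 0.325% of the reads of a p53-null library had no matching transcript and were left out. Of 56865 genes, 15687 passed filterByExpr. They were tested with edgeR 4.0.16 (R 4.3.3) by the quasi-likelihood test after TMM scaling, in 1 fit of 16 libraries with 4 group means and 12 residual degrees of freedom, with Benjamini-Hochberg adjustment over all genes and a threshold of 0.05. An adjusted p comes from this fit unless its sentence or paragraph names another. Those other fits used the same quasi-likelihood test, except that the value by DESeq2 comes from DESeq2's own test. CPM are scaled to the TMM-adjusted library total, and a log2 fold change is Null MS78 over Null DMSO. SE was approximated as the absolute log2 fold change over the root of the F statistic. A count of 0 allows up to 3 reads, a limit for counting error alone. The test was checked on simulated counts.

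The members, the 58 gene lists and the tests were chosen with earlier results of these data known. The rule for named genes took CDKN1A, MDM2, TNFRSF10B and PTPRC, every sterol enzyme, the 15 rising and 15 falling coding genes and the 5 and 5 long noncoding RNAs with the largest changes at 1 CPM or more without overlap, up to 5 called members of each list, the 10 smallest p, the 8 and 8 largest differences between lines and the 10 and 10 largest changes in CPM. The text names fewer, and some of the genes that the rule takes are not reported here. Members that make up a count of at most 5, and CDC20, MCM6, PCNA, KIF11, LAMP1, GALNS, ATP6V1G1, GAA, MCOLN1, RRAGB, KRT8, KRT18 and VIM, were chosen after their values were seen. Library sets were defined by at least 10 PTPRC reads. Promoters are the 250 bases before the start in RefSeq (GRCh38.p14), with a sequence for 11535 tested genes.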

Additional observations from a re-analysis of the deposited data

Results flagged for a closer look

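In 22 of 409 groups of 4 libraries screened (5.38%), 1 library lay far from the other three, with a gap to its neighbour over the 95% critical value of Dixon, as a share of the range, and chance alone flags about 1 in 20 such groups. For leukocyte genes the library apart was the one whose PTPRC reads differed from the rest of its group. In parentheses is the gap as a share of the range. PTPRC in Null MS78 replicate 1 was at 0.0389 CPM beside 3.56 to 4.103 CPM (0.867) and PTPRC in Null DMSO replicate 1 was at 2.57 CPM beside 0 to 0.0392 CPM (0.985). GNLY in Null DMSO replicate 1 was at 5.62 CPM beside 0 to 0.0862 CPM (0.985) and GZMB in Null DMSO replicate 1 was at 16.1 CPM beside 0 to 0.0431 CPM (0.997). CD74 in Null DMSO replicate 1 was at 9.31 CPM beside 0.0785 to 0.0862 CPM (0.999).

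Among the other genes the libraries apart were spread over both groups. FDPS in Null MS78 replicate 2 was at 1704 CPM beside 1823 to 1835 CPM (0.903) and LSS in Null DMSO replicate 4 was at 149 CPM beside 160.0 to 161 CPM (0.936). SC5D in Null DMSO replicate 1 was at 29.6 CPM beside 31.4 to 31.7 CPM (0.858) and DHCR7 in Null DMSO replicate 4 was at 104 CPM beside 119.6 to 123 CPM (0.836). PRIM1 in Null MS78 replicate 4 was at 30.3 CPM beside 26.5 to 26.9 CPM (0.891) and CDKN1C in Null MS78 replicate 4 was at 3.49 CPM beside 2.63 to 2.74 CPM (0.875). CDKN2B in Null MS78 replicate 3 was at 122 CPM beside 119.5 to 120.0 CPM (0.833) and EXO1 in Null MS78 replicate 2 was at 12.7 CPM beside 13.4 to 13.5 CPM (0.857). CCNG1 in Null MS78 replicate 1 was at 462 CPM beside 426 to 428 CPM (0.938) and ARRDC3 in Null MS78 replicate 1 was at 162 CPM beside 155 to 156 CPM (0.830). OSGIN1 in Null MS78 replicate 4 was at 26.04 CPM beside 29.2 to 29.4 CPM (0.934) and LIF in Null DMSO replicate 1 was at 15.3 CPM beside 14.5 to 14.6 CPM (0.832). MT-CO3 in Null MS78 replicate 1 was at 3499 CPM beside 2919.8 to 2976 CPM (0.903) and HSPA6 in Null DMSO replicate 1 was at 0.257 CPM beside 0.157 to 0.172 CPM (0.845). MBTPS2 in Null MS78 replicate 1 was at 70.2 CPM beside 64.1 to 64.9 CPM (0.878) and ERLIN1 in Null DMSO replicate 3 was at 60.8 CPM beside 63.8 to 64.3 CPM (0.859). CTSB in Null DMSO replicate 3 was at 315 CPM beside 273 to 278 CPM (0.864).

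Responses to MS78 that differed between the lines by the interaction test in edgeR's fit, as log2 fold change in p53-null cells minus that in the Y220C line, were more negative for CDKN1A (-1.01), FASN (-0.71), SLC7A11 (-1.30), ATF3 (-3.04), CRYAB (-8.71), HSPA6 (-6.06), FOS (-4.20), JUN (-2.76) and MYC (-1.05), and more positive for CITED2 (0.78), BMF (0.88), CRH (2.19) and SYT12 (1.83). Line, transgene and G418 cannot be told apart in these differences.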

How the results depend on the processing

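Of 361 genes examined by name, 1 that was called changed sign under any of 20 alternatives, the drug transporter gene ABCC10, which had a log2 fold change of 0.16 and of -0.11 on length-scaled TPM. Of the 361, 209 were called or not called alike under each alternative, and direction was compared only for genes that were called. Leaving out the genes of the PTPRC term, RLE scaling and a 1 CPM filter ended 0 calls of the 361. DESeq2 ended 5, no scaling 16, a replicate block 16, the PTPRC term 17 and length-scaled TPM 48 besides ABCC10. The fits within each library set, with a single library in 1 p53-null group, ended more calls than any of these. The 4402 calls in p53-null cells (2319 up, 2083 down) became 2863 (1518 up, 1345 down) on length-scaled TPM, 2346 (1140 up, 1206 down) within the libraries with PTPRC reads and 1070 (565 up, 505 down) within those without, which hold fewer libraries. The 4197 called differences between lines became 2748 (1248 more positive in p53-null cells, 1500 more negative), 1870 (685 and 1185) and 411 (111 and 300) under the same alternatives. In the Y220C line the sets gave 2319 falls with PTPRC reads, and 3490 calls (1972 up, 1518 down) without. Leaving out 1 library at a time gave 3688 to 4054 calls in p53-null cells, 3685 to 4250 differences and 6966 to 7334 calls in the Y220C line. Without scaling factors the share of called differences that were more positive in p53-null cells was 60.6% in place of 46.2%. Same-numbered replicates did not deviate together (correlations of -0.50, -0.04, -0.16 and -0.13), and a replicate block gave 3881 calls in p53-null cells, 3648 differences and 7110 calls in the Y220C line. The cause of these changes was not tested. Changes of genes with few reads are limited by depth.

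With single libraries left out, some calls named in the text missed the threshold, with their adjusted p of edgeR's quasi-likelihood test in parentheses. Without Null MS78 replicate 1, the calls of ULBP2 (0.0901), ZMAT3 (0.0927) and RRM2B (0.0505) did. Without Null MS78 replicate 2, the calls of EP300 (0.0513), ATP5F1B (0.0512), ULBP2 (0.0714), GNLY (0.0858), MT-CO3 (0.134), ATG12 (0.0924), ZMAT3 (0.0647) and AHSA1 (0.12) did. Without Null MS78 replicate 3, the calls of ATP5F1B (0.0645), GNLY (0.0984), MT-CO3 (0.123), MBTPS2 (0.0537), ATG12 (0.0607) and ZMAT3 (0.0843) did. Without Null MS78 replicate 4, the calls of TNFRSF10B (0.0934), MT-CO3 (0.113), MT-ATP8 (0.0792) and ATG12 (0.0856) did. Without Null DMSO replicate 1, the calls of ULBP2 (0.0774), MT-ATP8 (0.0682), IER5 (0.0519) and AHSA1 (0.0635) did. Without Null DMSO replicate 2, the calls of TNFRSF10B (0.059), GNLY (0.0842), MT-CO3 (0.0613), MT-ATP8 (0.0659), ZMAT3 (0.114) and AHSA1 (0.0759) did. Without Null DMSO replicate 3, the calls of TNFRSF10B (0.0612), ULBP2 (0.0636), GNLY (0.0813), MT-CO3 (0.067) and ZMAT3 (0.166) did. Without Null DMSO replicate 4, the calls of SIRT2 (0.057), ULBP2 (0.0905), GNLY (0.0797), MT-CO3 (0.143) and ATG12 (0.0812) did.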
